A study of Homo sapiens with 6 samples.

Results

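Interferon-stimulated genes are genes whose transcription rises when a cell receives interferon, the cytokine that warns tissues of viral infection. Type I interferons bind the receptor chains IFNAR1 and IFNAR2, the kinases JAK1 and TYK2 phosphorylate STAT factors, and STAT2 and IRF9 are subunits of the transcription factor ISGF3 that then forms. ISGF3 binds interferon-stimulated response elements in promoters, and the induced proteins block viral entry, translation and replication. Kidney tubule cells answer interferon, and many of these genes keep a basal level without any added cytokine.

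The 9 genes described here were chosen by name: the ubiquitin-like modifier ISG15, the RNA exonuclease ISG20, the small hydrophobic proteins IFI6 and IFI27, the membrane proteins IFITM1, IFITM2 and IFITM3, and the ISGF3 subunits STAT2 and IRF9. All 9 had a row among the 25808 genes of the deposited table, where genes carry Ensembl identifiers: ENSG00000187608 (ISG15), ENSG00000172183 (ISG20), ENSG00000126709 (IFI6), ENSG00000165949 (IFI27), ENSG00000185885 (IFITM1), ENSG00000185201 (IFITM2), ENSG00000142089 (IFITM3), ENSG00000170581 (STAT2) and ENSG00000213928 (IRF9). Their levels came from RNA-seq of HK2, a human proximal tubule line immortalised with viral oncogenes. In 3 libraries the confluent cells had received 20 µM of tris(2-butoxyethyl) phosphate (TBOEP), an organophosphate flame retardant and plasticiser, for 48 hours. The other 3 libraries are labelled DMSO, the solvent, at a dose and time that the labels do not state. The labels name no interferon treatment in either group.

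Values are FPKM, read counts scaled to gene length and to library size. Library totals recovered from the steps between FPKM values ran from 32547856 to 38247579 reads. The labels do not say whether the libraries of a group were separate cultures, so the p-values cover the variation among these libraries alone, and that may be technical. The renal epithelial label was checked on marker genes. PAX8, a renal lineage factor, averaged 36.7 ± 0.204 FPKM in TBOEP cells and 37.1 ± 1.43 FPKM in DMSO cells, and 4 of 5 general epithelial markers reached 1 FPKM (SD, n = 3 each). The keratins KRT8 and KRT18 moved in opposite directions. KRT8 averaged 273 ± 2.78 FPKM in TBOEP cells and 338 ± 5.1 FPKM in DMSO cells, and KRT18 averaged 110 ± 2.43 FPKM in TBOEP cells and 94.8 ± 2.18 FPKM in DMSO cells. CDH1, E-cadherin and a defining epithelial marker, was close to 0, with 0.0049 ± 0.00506 FPKM in TBOEP cells and 0.019 ± 0.0176 FPKM in DMSO cells, on 0 to 8 reads per library. Only 5 of the 10 proximal tubule and renal markers in the table reached 1 FPKM in any library, and the sodium-phosphate transporter SLC34A1 averaged 0.0531 ± 0.0186 FPKM in TBOEP cells and 0.0683 ± 0.0374 FPKM in DMSO cells. The 5 leukocyte markers in the table summed to between 1.86 and 2.4 FPKM in TBOEP libraries and between 1.74 and 2.12 FPKM in DMSO libraries. The 3 endothelial markers summed to 25 to 27.2 FPKM in TBOEP libraries and 33.8 to 35.2 FPKM in DMSO libraries, and the 4 fibroblast markers to 22.7 to 22.9 FPKM in TBOEP libraries and 26.8 to 29.6 FPKM in DMSO libraries. Of the leukocyte, endothelial and fibroblast lists 1 gene each reached 1 FPKM, namely CSF1R, EGFL7 and COL1A1. Their part in the members' differences was not tested.

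The response element is shown first because it is the sequence by which ISGF3 recognises its target promoters. Promoter windows of RefSeq (build GRCh38.p14, 250 bases before to 50 after each gene's start) were matched by symbol for 8 of the 9 members, IFITM2 being the exception. They were searched on both strands for the core of the element, 2 copies of GAAA with any 2 bases between them, and overlapping matches were counted. The motif stood in 6 of these 8 windows (75%), in 26 of 39 windows of other interferon-stimulated genes (66.7%) and in 1195 of 27305 windows of all genes (4.38%). The STAT2 and IRF9 windows held no match to these letters. Matches are in capitals below, 5′ to 3′ on the strand of the gene, and those of IFI27 include a match on the opposite strand, read here as 2 copies of TTTC.
ISG15: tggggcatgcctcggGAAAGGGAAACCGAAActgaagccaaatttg
IFI6: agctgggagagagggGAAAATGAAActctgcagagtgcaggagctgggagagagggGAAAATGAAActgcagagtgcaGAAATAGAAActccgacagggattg
IFITM1: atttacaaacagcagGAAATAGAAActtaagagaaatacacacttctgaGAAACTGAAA
IFITM3: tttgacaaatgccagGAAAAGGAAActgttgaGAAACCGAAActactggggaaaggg
ISG20: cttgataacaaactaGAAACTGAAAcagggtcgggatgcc
IFI27: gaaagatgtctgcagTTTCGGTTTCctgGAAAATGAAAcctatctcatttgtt

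The ISG15 stretch lies at chr1:1013369-1013414 on the + strand, with 2 overlapping matches that end 98 bases before the start. That of IFI6 lies at chr1:27672261-27672363 on the - strand and holds 3 matches, the nearest 84 bases from the start. Those of IFITM1 (chr11:313985-314043, + strand) and IFITM3 (chr11:320871-320927, - strand) hold 2 matches each. The match nearest the start ends 26 bases before it in IFITM3. In IFITM1 the last 4 bases of that match begin at the start base. The ISG20 match (chr15:88638932-88638971, + strand) ends 60 bases before the start. The IFI27 stretch is at chr14:94110613-94110665 on the + strand, and its matches end 86 and 165 bases before the 2 starts that RefSeq lists. A match is a description of the letters, and no binding was measured here.

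Of the 9 members, 4 were below 1 FPKM in all 6 libraries: ISG20, IFITM2, IFI27 and IRF9. IFITM1 was below 1 FPKM in 1 library, and ISG15, IFI6, IFITM3 and STAT2 were above it in every library. In both groups the order of mean levels was ISG15, IFI6, IFITM3, STAT2, IFITM1, ISG20, IFITM2, IFI27 and IRF9. Among the TBOEP libraries the values of IFITM2 and IFI27, which are next to each other in that order, overlapped, and in both groups the other neighbouring genes did not. FPKM is scaled to gene length, but for every member the length implied by the values exceeded that of the longest annotated transcript. This implied length was 867 against 787 bases for ISG15 and 936 against 841 for IFI6. For IFITM3 it was 2844 against 808 bases, for STAT2 9310 against 3278 and for IRF9 6471 against 1838. The excess was uneven, so the order is that of the FPKM values and need not be that of transcript levels.

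**Figure D1:**
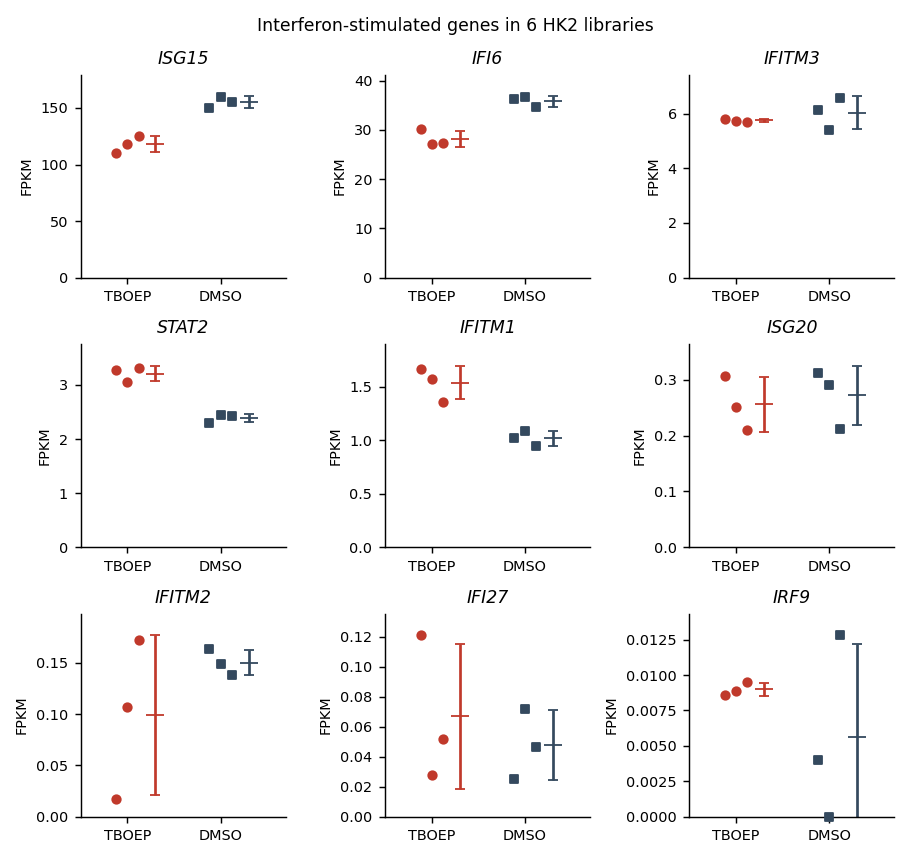
FPKM of the 9 members in each library (points), with the mean and SD of each group beside them (bars, n = 3), in order of level; each panel has its own axis from 0, which cuts the lower bar of IRF9 in DMSO cells. ISG15 and IFI6 were lower in all TBOEP than in all DMSO libraries, STAT2 and IFITM1 were higher, and the other 5 genes overlapped between the groups.

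With limma (values as log2(FPKM + 1), p adjusted by Benjamini-Hochberg), 4 of the 5 members that could be tested differed between TBOEP and DMSO cells at an adjusted p under 0.05. STAT2 and IFITM1 rose, ISG15 and IFI6 fell, and IFITM3 was not called. Over all 9631 tested genes 53.8% were called, 26.9% higher and 26.9% lower, so calls were common and the members' count is to be read against that share. In simulated data with far fewer changed genes than calls here, the share of unchanged genes among the calls was above the 0.05 threshold. That share depends on how many genes change, so its size does not carry over to these libraries. An adjusted p close to the threshold is still taken as weak evidence. The median log2 fold change of the 5 tested members was -0.06, beside -0.02 over all tested genes. In whole-cell RNA, fewer expressing cells and less RNA per cell cannot be told apart.

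ISG15, the modifier that interferon induces and that is joined to newly made proteins, had the highest FPKM of the members. It stood at 110, 118 and 125 FPKM in TBOEP libraries 1 to 3, against 150, 160 and 155 FPKM in DMSO libraries 1 to 3. Every TBOEP library was lower than every DMSO library, and groups were likewise apart, in either direction, in 62.3% of all tested genes. Reads behind these values ran from 3423 to 4966 per library. The mean was 118 ± 7.35 FPKM in TBOEP cells and 155 ± 5.31 FPKM in DMSO cells (SD, n = 3 each), a log2 fold change of -0.40 ± 0.05 (SE; limma adjusted p = 0.000145). After a correction of each library for GC content and transcript length the log2 fold change of ISG15 was -0.04 ± 0.04 and was not called (limma adjusted p = 0.477). ISG15 transcripts have 63.4% GC, and over tested genes above 60% GC the median log2 fold change was -0.24.

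IFI6, a mitochondrial and endoplasmic reticulum protein that opposes apoptosis and flavivirus replication, was the next in FPKM. Its FPKM was 30.1, 27.1 and 27.3 in TBOEP libraries, against 36.3, 36.6 and 34.7 in DMSO libraries. The groups did not overlap, and the 3 TBOEP libraries lay together below the DMSO range. Mean IFI6 was 28.2 ± 1.66 FPKM in TBOEP cells and 35.8 ± 1.04 FPKM in DMSO cells (SD, n = 3 each), a log2 fold change of -0.34 ± 0.05 (SE; limma adjusted p = 0.000309). After the correction for GC and length IFI6 was still called lower, at -0.22 ± 0.04 (limma adjusted p = 0.00277), a smaller size by over 1.5 times.

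STAT2, the ISGF3 subunit that carries the transactivation domain, moved the other way. It had 3.27, 3.05 and 3.32 FPKM in TBOEP libraries, against 2.3, 2.44 and 2.43 FPKM in DMSO libraries, from 763 to 1090 reads per library. All TBOEP libraries were above all DMSO libraries. The log2 fold change was 0.31 ± 0.06 (SE; limma adjusted p = 0.00147). With 0.1 in place of 1 as the pseudocount it was 0.41, since adding 1 understates the change of low genes. After the correction for GC and length STAT2 was at 0.08 ± 0.05 and was not called (limma adjusted p = 0.234).

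IFITM1, a plasma membrane protein that restricts the entry of enveloped viruses, was near the 1 FPKM filter. It stood at 1.67, 1.57 and 1.36 FPKM in TBOEP libraries, against 1.02, 1.09 and 0.948 FPKM in DMSO libraries. The groups did not overlap, but only 57 to 100 reads per library lay behind these values. IFITM1 rose, with a log2 fold change of 0.33 ± 0.07 (SE; limma adjusted p = 0.00437), and its size depended on the scale. It was 0.54 with a pseudocount of 0.1 and 0.59 when the recovered reads were fitted with limma-voom, and after the correction for GC and length it was still called higher, at 0.23 ± 0.07 (limma adjusted p = 0.0274).

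IFITM3, which restricts viruses in endosomes, had 5.81, 5.74 and 5.69 FPKM in TBOEP libraries, against 6.12, 5.39 and 6.58 FPKM in DMSO libraries. The TBOEP libraries lay within the DMSO range, which was the wider of the 2 groups. The log2 fold change of IFITM3 was -0.06 ± 0.07 (SE; limma adjusted p = 0.5). Its sign was not stable, at 0.09 after the correction for GC and length and 0.00 without DMSO replicate 3, and it was called in none of the alternatives.

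The IFITM genes are close copies of each other, so their reads are uncertain. In the GENCODE 29 annotation, 32% of the 50-base windows of IFITM1 transcripts, 34.3% of those of IFITM2 and 35.2% of those of IFITM3 occur exactly in transcripts of other genes. IFITM1 and IFITM2 share 351 exon bases there. IFITM2, which restricts entry in late endosomes, had 0.0174, 0.107 and 0.172 FPKM in TBOEP libraries, against 0.163, 0.149 and 0.138 FPKM in DMSO libraries. These values are 1 to 10 reads per library, and the TBOEP libraries spanned the DMSO range. An exact two-sided permutation test of the IFITM2 levels gave p = 0.4, where 3 against 3 libraries cannot go below 0.1.

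ISG20, a 3′-to-5′ exonuclease of RNA, had 0.307, 0.251 and 0.21 FPKM in TBOEP libraries, against 0.313, 0.291 and 0.212 FPKM in DMSO libraries. The groups overlapped almost wholly, on 49 to 86 reads per library (exact two-sided permutation p = 0.7). IFI27, a mitochondrial and nuclear envelope protein that is a marker of interferon exposure in blood, had 0.121, 0.0277 and 0.0519 FPKM in TBOEP libraries. In DMSO libraries it had 0.0252, 0.072 and 0.0468 FPKM. TBOEP replicate 1, with 18 reads, was the highest of the 6 libraries and the others had 4 to 10 reads (exact two-sided permutation p = 0.6). With no filter on low values ISG20, IFI27 and IFITM2 were not called by limma (adjusted p of 0.883, 0.736 and 0.559). The 1 to 18 reads behind IFI27 and IFITM2 leave all but large differences out of reach, whereas ISG20 had nearly as many reads as IFITM1.

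IRF9, the DNA-binding subunit of ISGF3, was close to the limit of detection. It had 0.00862, 0.00886 and 0.0095 FPKM in TBOEP libraries, against 0.00404, 0 and 0.0128 FPKM in DMSO libraries. That is 2 reads in each TBOEP library and 1, 0 and 3 reads in the DMSO libraries. In DMSO replicate 2 a count of 0 allows up to 0.0138 FPKM, which is 3 reads, counting error only (exact two-sided permutation p = 0.4). In GENCODE 29 IRF9 shares 1838 exon bases with AL136295.5, a gene on the same strand that was not analysed here. The treatment of reads that match more than 1 gene is not stated, so the low value of IRF9 cannot be read as absence of its mRNA.

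The upstream pathway was described from lists of interferon signalling genes. Counts per list, here and below, are to be read against all tested genes, of which 26.9% were called in each direction. Of 9 receptor chains and JAK kinases, 5 were tested, 1 was called higher, 1 lower and 3 were not called. IFNAR1, the signalling chain of the type I receptor, averaged 0.829 ± 0.125 FPKM in TBOEP cells and 0.899 ± 0.0238 FPKM in DMSO cells (SD, n = 3 each). It was below the filter, on 349 to 529 reads per library over an implied length of 15676 bases. IFNAR2 averaged 0.0761 ± 0.0147 and 0.0547 ± 0.00718 FPKM in TBOEP and DMSO cells, and it shares 2038 exon bases with AP000295.1, a gene not analysed here. JAK1 fell by 0.14 on the log2 scale (limma adjusted p = 0.0175), a call that ended without TBOEP replicate 3 or DMSO replicate 1 (adjusted p of 0.0569 and 0.0565). After the correction for GC and length JAK1 was at -0.27 (limma adjusted p = 0.000358). TYK2 was at -0.07 (limma adjusted p = 0.165), and at 0.08 after the correction. The interferon gamma receptor chain IFNGR2 was at 0.35 ± 0.12 (SE; limma adjusted p = 0.0389), with overlapping groups. That call ended in 4 of the 6 fits that left out a library, namely without TBOEP replicate 2 or 3 or DMSO replicate 1 or 3 (adjusted p of 0.105 to 0.118). It also ended after the correction (0.29, adjusted p = 0.0755), with quantile normalization (0.0537), with median centring (0.074) and with no filter on low values (0.147). IFNGR1 was at 0.09 (limma adjusted p = 0.315), and at -0.05 after the correction. IFNLR1, of the type III receptor, was at 0.16 (limma adjusted p = 0.0537). For the 10 listed interferon genes themselves no row was found by symbol in the deposited table, so they have no level here.

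Other STAT factors were read beside STAT2. STAT6, a factor of interleukin signalling, rose by 0.22 ± 0.03 (limma adjusted p = 0.000615) and STAT5B by 0.25 ± 0.05 (limma adjusted p = 0.00389). STAT3 was at 0.06 and not called (limma adjusted p = 0.45). STAT6 was still called after the correction for GC and length and STAT5B was not (adjusted p = 0.0509).

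Of the 3 IRF factors that were tested, which do not include IRF9, 1 fell. IRF3, which turns on interferon genes after viral sensing, had 26.9, 26.2 and 26.7 FPKM in TBOEP libraries, against 32.1, 31.8 and 32.7 FPKM in DMSO libraries. The groups were well apart, with a log2 fold change of -0.27 ± 0.03 (SE; limma adjusted p = 0.000121), and at -0.16 after the correction for GC and length. IRF1 and IRF2 were at 0.03 and -0.07 and were not called (limma adjusted p of 0.778 and 0.369), and IRF2 was called lower by limma after the correction (-0.35, adjusted p = 0.00174).

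Of the 5 tested sensors and adaptors of foreign nucleic acid, 1 was called higher and 1 lower. CGAS, the DNA sensor, was at 0.18 (limma adjusted p = 0.0325) and MAVS, the adaptor of the RNA sensors, at -0.15 (0.0228). Neither was called after the correction for GC and length, where they were at -0.01 and -0.04. Leaving out TBOEP replicate 1 or 2 or DMSO replicate 2 or 3 ended the call of CGAS (adjusted p of 0.0607 to 0.107), as did quantile normalization (0.121) and median centring (0.112). Leaving out TBOEP replicate 2 or 3 or DMSO replicate 1 or 3 ended that of MAVS (0.0551 to 0.083). IKBKE and TICAM1 were at -0.21 and -0.11 and were not called (limma adjusted p of 0.0586 and 0.12).

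Most other interferon-stimulated genes had low FPKM in HK2 cells. Of 48 listed genes outside the members 42 were in the table, of which 24 were below 1 FPKM in every library and 9 below 0.1 FPKM. Low FPKM did not always mean few reads, since FPKM is divided by gene length. SAMHD1, among the 24, had 212 to 369 reads per library over an implied length of 10835 bases. Classical strongly induced genes were among the low ones: MX1, a GTPase that blocks viral nucleocapsids, was between 0.0303 and 0.0636 FPKM in TBOEP libraries and between 0.037 and 0.0436 FPKM in DMSO libraries. RSAD2, the antiviral enzyme viperin, had 0.0444, 0.0152 and 0.0706 FPKM in TBOEP libraries, against 0, 0 and 0.00979 FPKM in DMSO libraries. These are 9, 3 and 13 reads in TBOEP libraries and 0, 0 and 2 reads in DMSO libraries, so the groups did not overlap but RSAD2 was too low for the test. MX1 and RSAD2, like IFI27L2, were picked after their values were seen. At the other end BST2, or tetherin, which holds budding virus at the cell surface, had the highest FPKM.

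**Figure D2:**
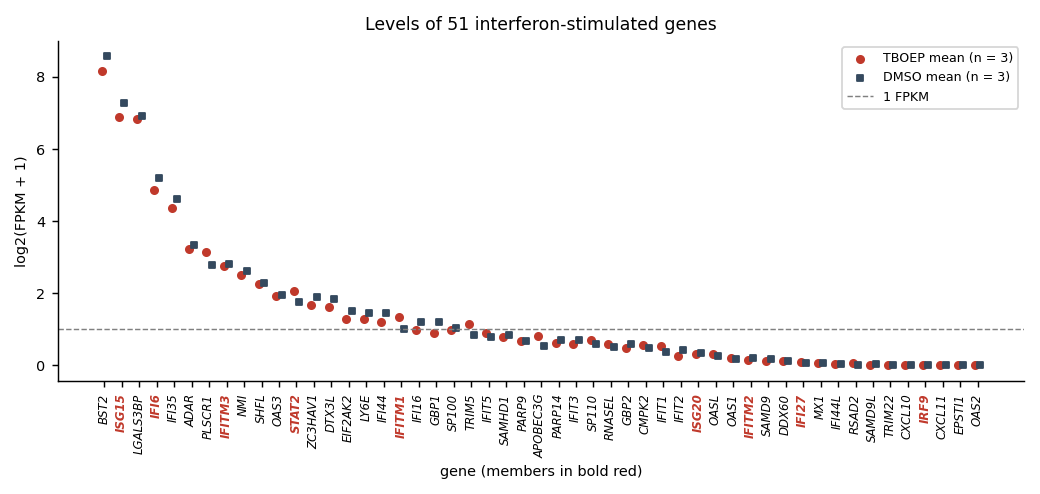
Mean level of 51 interferon-stimulated genes in TBOEP and DMSO cells, as log2(FPKM + 1), in order of level (n = 3 per mean; members in bold red; dashed line, 1 FPKM). BST2 and ISG15 lead, and 4 members lie among the genes below 1 FPKM.

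BST2 had 285, 270 and 296 FPKM in TBOEP libraries, against 379, 376 and 385 FPKM in DMSO libraries. It was lower in every TBOEP library, as ISG15 and IFI6 were. The log2 fold change of BST2 was -0.42 ± 0.04 (SE; limma adjusted p = 1.92e-05), and -0.28 after the correction for GC and length (adjusted p = 0.000139).

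Of 7 tested antiviral effectors outside the members, BST2 included, 1 was called higher and 2 lower. The higher one was TRIM5, which restricts retroviral capsids, and it passed the filter through its TBOEP libraries alone, so its call is no support. TRIM5 had 1.21, 1.23 and 1.17 FPKM in TBOEP libraries, against 0.694, 0.903 and 0.746 FPKM in DMSO libraries, and it was at 0.12 and not called after the correction for GC and length. EIF2AK2, the kinase PKR that stops translation on sensing double-stranded RNA, fell by 0.23 ± 0.07 (limma adjusted p = 0.0234). That call ended after the correction and without TBOEP replicate 2 or 3 or DMSO replicate 3 (adjusted p of 0.0691 to 0.0988). ADAR, the RNA editing enzyme, was at -0.11 (limma adjusted p = 0.0876), and called lower after the correction (0.0192).

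Of 9 other tested interferon-stimulated genes, 1 was called higher and 6 lower, with a median of -0.20. PLSCR1, a phospholipid scramblase with antiviral activity, had 7.69, 7.64 and 8.4 FPKM in TBOEP libraries, against 5.58, 6.12 and 5.86 FPKM in DMSO libraries. It was the only one of the 9 whose TBOEP libraries were all above the DMSO libraries, with a log2 fold change of 0.38 ± 0.05 (SE; limma adjusted p = 0.000426), or 0.25 after the correction (adjusted p = 0.00991). GBP1, a guanylate-binding protein, was among the 6 but passed the filter through its DMSO libraries alone, so its call is no support either. It had 0.846, 0.883 and 0.821 FPKM in TBOEP libraries, against 1.15, 1.23 and 1.52 FPKM in DMSO libraries. IFI44 and IFI35 fell by 0.23 and 0.25 (limma adjusted p of 0.0173 and 0.018). The call of IFI35 ended after the correction (-0.08) and without TBOEP replicate 1 or 2, and that of IFI44 without TBOEP replicate 3 or DMSO replicate 1. IFI44 was at -0.35 after the correction, and with limma-voom on recovered reads it was not called (adjusted p = 0.0929).

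Over both lists, 2 of 16 tested genes were called higher and 8 lower, where 26.9% of all tested genes were called in each direction. The median log2 fold change was -0.20, beside -0.02 over all tested genes. After the correction for GC and length 2 were called higher and 7 lower, where 21.5% of all genes were called higher and 24.4% lower. The count of 8 was the same without DMSO replicate 2, but it was 4 without TBOEP replicate 1, 5 without TBOEP replicate 2, 4 without TBOEP replicate 3, 4 without DMSO replicate 1 and 5 without DMSO replicate 3. With no filter on low values it was 2. Without TRIM5 and GBP1, 1 of 14 genes was called higher and 7 lower.

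**Figure D3:**
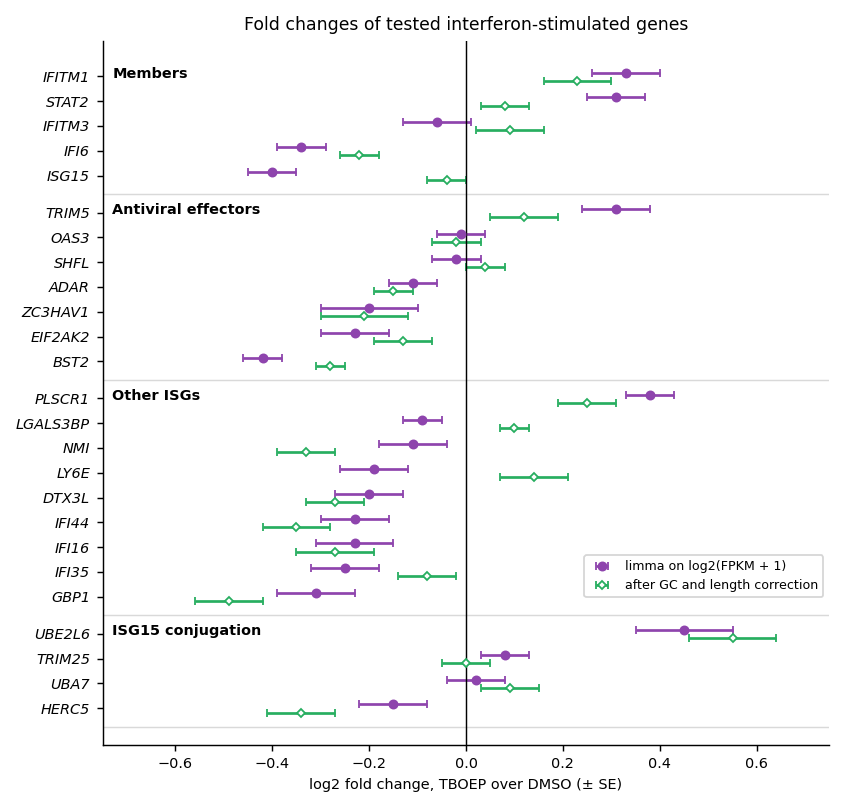
Log2 fold change (TBOEP over DMSO, ± SE, 3 libraries each) of tested members, antiviral effectors, other interferon-stimulated genes and ISG15 conjugation genes, by limma on log2(FPKM + 1) (filled) and after the correction for GC and length (open). IFI6 and BST2 lie below 0 and IFITM1, PLSCR1 and UBE2L6 above 0 in both fits, while ISG15 is at -0.40 in the uncorrected fit and -0.04 in the corrected one.

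The enzymes that join ISG15 to its targets were read beside ISG15 itself. UBE2L6, the ISG15 conjugating enzyme, had 18.1, 22.5 and 19.5 FPKM in TBOEP libraries, against 15.5, 14.7 and 12.8 FPKM in DMSO libraries. All TBOEP libraries were higher, opposite to ISG15. UBE2L6 rose, with a log2 fold change of 0.45 ± 0.10 (SE; limma adjusted p = 0.00627) and was at 0.55 after the correction for GC and length (adjusted p = 0.00249). UBA7, the activating enzyme, was at 0.02, the ligase HERC5 at -0.15 and TRIM25, also an ISG15 ligase, at 0.08, and none of the 3 was called (limma adjusted p of 0.763, 0.13 and 0.193). HERC5 was called lower after the correction, at -0.34. USP18, which removes ISG15, was below the filter, at 0.251 ± 0.0937 FPKM in TBOEP cells and 0.251 ± 0.0588 FPKM in DMSO cells (SD, n = 3 each).

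Among 6 tested negative regulators of the pathway, 1 was called higher and 2 lower. SOCS3, an inhibitor of JAK kinases, fell by 0.22 ± 0.03 (limma adjusted p = 0.000516) but was at -0.07 and not called after the correction for GC and length. PTPN2, a phosphatase of the JAK-STAT pathway, rose by 0.27 ± 0.06 (limma adjusted p = 0.00598) and PTPN11, the phosphatase SHP2, fell by 0.23 ± 0.06 (0.0133), and both were still called after the correction. PTPN1 was at 0.07 and not called (limma adjusted p = 0.174), and after the correction it was called lower, at -0.14.

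Among family relatives of the members, ISG20L2 and AEN, exonucleases related to ISG20, were at 0.22 and -0.20 (limma adjusted p of 0.00672 and 0.00491), and after the correction they were at -0.01 and -0.32 (0.879 and 0.0005). IFI27L2, a relative of IFI27, did not follow the groups. It had 0.418, 0.698 and 0.633 FPKM in TBOEP libraries, against 76.6, 0.54 and 73.8 FPKM in DMSO libraries. DMSO replicate 2 stood with the TBOEP libraries and apart from the other 2 DMSO libraries, so no fold is given, and IFI27L2 was not tested. Over all pathway lists together, 9 of 46 tested genes were called higher and 15 lower, where 26.9% of all tested genes were called in each direction. The median log2 fold change of the 46 was -0.08, and -0.04 after the correction for GC and length. The 15 became 8 without TBOEP replicate 3, 8 without DMSO replicate 1 and 6 with no filter on low values. In that fit the calls of IFNGR2, CGAS, MAVS, EIF2AK2, IFI35, IFI44 and PTPN11 ended, with adjusted p by limma of 0.0563 to 0.147.

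Fold changes in these libraries ran with GC content, and the tested members were spread over that trend. The median log2 fold change was 0.09 over tested genes of 50 to 55% GC, -0.07 over those of 55 to 60% and -0.24 over those above 60%. Below these ranges it was -0.03 under 40% GC, 0.06 at 40 to 45% and 0.15 at 45 to 50%, so the trend was not a steady fall. STAT2 (50.2% GC) and IFITM1 (52.5%) were in the range where 38.9% of genes were called higher and 12.7% lower, IFI6 (56.1%) and IFITM3 (56.9%) in the next and ISG15 in the last, where 1.1% were called higher and 64.6% lower. After the correction 1 member was called higher, IFITM1, and 1 lower, IFI6, where 45.9% of all genes were called. The part of GC content and length in the members' differences was not tested beyond this correction.

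**Figure D4:**
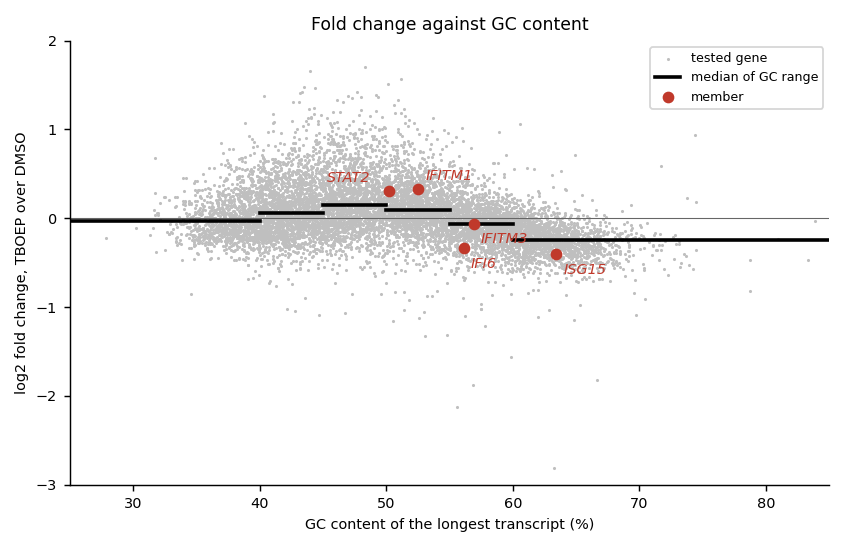
Log2 fold change (TBOEP over DMSO, by limma on log2(FPKM + 1)) against the GC content of each gene's longest transcript, for tested genes (grey) and the 5 tested members (red); black lines are medians over ranges of GC content. ISG15, at 63.4% GC and -0.40, lies where the median is -0.24.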

How the data were processed

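RNA-seq of 3 TBOEP and 3 DMSO libraries was grouped by the treatment label. Per the submitters' processing notes, reads went through Trimmomatic and HISAT2; no source used here gives the counting tool, build or annotation. The labels name 2 library kits, so use of strand is unknown. The authors deposited 1 value per gene and library without a unit, read as FPKM because values were whole multiples of 1 step per gene (tolerance 0.01 reads, 25808 genes). Totals were those that made gene lengths whole.

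Genes reaching 1 FPKM in 3 or more of the 6 libraries were tested by limma 3.58.1 (R 4.3.3; trended, robust, two-sided, pseudocount 1), adjusted over 9631 genes. The GC and length correction subtracted a smooth surface (mgcv 1.9.3) fitted per library, for 98.9% of tested genes. On simulated data with far fewer changed genes, the test recovered most of the larger known changes. Recovery of changes as small as the members' is not reported here. The share of unchanged genes among the calls on simulated data was above the threshold.

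Members, lists and tests were chosen with earlier results of these data known. Named are all members, 7 signalling genes and up to 4 genes per list with the smallest p; 1 of the signalling genes is not reported here. All 6 replicate pairs differed beyond sampling noise (chi-square 7.25 to 8.79 per degree of freedom).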

Additional observations from a re-analysis of the deposited data

How the results depend on the processing

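Each result was recomputed under 18 alternatives. The count of called genes, 5178, stayed within 1.5 times throughout, at 4556 to 4774 with 1 library left out. Median centring changed the share of called genes that were higher from 50.1% to 38.6%. Members called higher (2) and lower (2) were the same in number without any 1 library (2 each). They were 1 and 1 after the GC and length correction and after that correction with the replicate block, and 0 were called higher with a filter at 5 FPKM, which leaves STAT2 and IFITM1 out. That filter called 5 list genes higher and 8 lower, in place of 9 and 15, and 1 and 2 genes of both interferon-stimulated lists, in place of 2 and 8; fewer genes are tested. With no filter the lower counts were 6 and 2. Without TRIM5 and GBP1, a choice made after seeing the data, 8 list genes were higher and 14 lower, and 1 and 7 in both interferon-stimulated lists. Leaving out 1 library gave 7 to 9 list genes higher and 8 to 15 lower, and 2 and 4 to 8 in both interferon-stimulated lists.

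Same-numbered libraries deviated little together (correlations 0.11, -0.03 and 0.01). With 3 libraries per group this cannot exclude that the numbers pair the samples. With the replicate block 4791 genes were called and the members' 4 calls held.

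After the GC and length correction, with and without the replicate block, signs turned in IFITM3 (0.09), CGAS (-0.01), IFNGR1 (-0.05), IRF1 (-0.07), ISG20L2 (-0.01), PTPN1 (-0.14), STAT3 (-0.07), TICAM1 (0.12) and TYK2 (0.08). They also turned for IRF1 with median centring (-0.03) and without TBOEP replicate 2 (-0.02), for STAT3 with quantile normalization (-0.01) and for UBA7 with median centring (-0.04). Below the filter, the difference in log2(FPKM + 1) ran from -0.05 to 0.01 for ISG20 and from -0.01 to 0.05 for IFI27 with 1 library left out. The cause of these shifts was not tested. Depth limits IFITM2, IFI27 and IRF9 most, whereas ISG20 had 49 to 86 reads per library.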

Other observations

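HES4, a Notch target next to ISG15 and on the opposite strand in GENCODE 29, was examined after its values were seen. It averaged 94.6 ± 5.16 FPKM in TBOEP cells and 137 ± 4.58 FPKM in DMSO cells (SD, n = 3 each). Unlike ISG15, HES4 was still called lower after the GC and length correction, at -0.23 ± 0.03 (limma adjusted p = 0.000227).

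IRF7, an interferon-induced factor, varied between libraries without following the treatment: it had 0.0855, 0.0878 and 1.24 FPKM in TBOEP libraries, against 0.22, 0.114 and 0.933 FPKM in DMSO libraries. Both libraries numbered 3 were the high ones.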
